A study of Mus musculus with 4 samples.

Results

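The transcripts of RAW 264.7 cells after 4 h with Lactobacillus bulgaricus were set against those after 1 h. RAW 264.7 is a macrophage-like line of BALB/c mouse origin, and the bacterium is a lactic acid bacterium used in fermented milk. Both groups received bacteria at an MOI (bacteria per cell) of 10, with no antibiotic in the medium. Each group was 1 two-colour array of RNA pooled in equal amounts from 3 cultures, so the difference has no replicate check and no p-value was computed. The cells' RNA was labelled with Cy5. The Cy3 channel held a common reference, pooled from untreated cells and all treated groups. No dyes were swapped, so a ratio's position above or below the pool may hold dye bias of the probe. The dyes were the same at 1 h and 4 h, so the difference between these arrays is less open to it. These 2 arrays are part of a series of 4; the 6 h array is quoted only as a level beside them, and the untreated array was not used. All arrays lay on 1 slide in the order of time, so place on the slide cannot be told apart from time.

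Of 39429 probes, 15903 are called measured, as both Cy5 and Cy3 stood well above background at 1 h and at 4 h; they cover 10537 of the 20971 named genes on the array. The measure is the log2 ratio of Cy5 to Cy3 at 4 h minus that at 1 h, and a probe was counted when this difference reached 1 in size, a 2-fold change. By this rule 52 probes were lower at 4 h (0.327% of those measured) and 11 were higher (0.0692%). Averaged per gene, 40 genes were lower (0.38%) and 4 were higher (0.038%). Over all measured probes the difference had a median of -0.04 and an SD of 0.23, and probes printed in 10 spots gave a spot SD of 0.10, a spot error that leaves out how cultures vary. The share of spots with Cy5 well above background was 51.8% at 1 h and 51.0% at 4 h.

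Immediate early genes are transcribed within minutes of a stimulus from promoters that already carry their activators, and many of their mRNAs are short lived, so their levels can come and go within hours. In macrophages, bacterial cell wall components acting through Toll-like receptors switch on such genes through MAP kinases and NF-kB. Genes for cytokines, metal-binding proteins and enzymes of the antioxidant response can follow on their own schedules.

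Of the 40 lower genes, 8 were on the list of immediate early genes, and most of these 8 stood above the reference pool at 1 h and near or below it at 4 h. Nr4a1, an orphan nuclear receptor induced early in activated macrophages, had a log2 ratio of 1.00 at 1 h, -0.84 at 4 h and -0.62 at 6 h. Its difference of -1.84 was carried by the cells' channel: Cy5 alone moved by -1.85 and Cy3 alone by -0.01. The related receptor Nr4a2 was measured by 2 probes, and both were counted. The first had ratios of 1.29, -1.70 and -1.64 at 1, 4 and 6 h, a difference of -2.99; the second had 0.86, -0.91 and -0.82, a difference of -1.77. Both probes were high at 1 h only. The third member of the family, Nr4a3, was on the array but not measured.

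The promoters of these receptor genes are shown because both hold repeated copies of the short core of the cAMP response element, the 5 letters TGACG, which also lie within the full element TGACGTCA. The sequences come from RefSeq on GRCm38.p6, run 5' to 3' on the strand of the gene and end before the start of transcription; capitals mark TGACG or its reverse complement CGTCA. The first is chr15:101266596-101266835 on the plus strand, and the second is chr2:57124085-57124228 on the minus strand.
Nr4a1: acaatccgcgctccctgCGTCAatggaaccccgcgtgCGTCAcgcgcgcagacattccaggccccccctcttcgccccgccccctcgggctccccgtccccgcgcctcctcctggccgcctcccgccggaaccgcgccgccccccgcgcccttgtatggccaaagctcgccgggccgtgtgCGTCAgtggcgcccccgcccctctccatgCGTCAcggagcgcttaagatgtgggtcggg
Nr4a2: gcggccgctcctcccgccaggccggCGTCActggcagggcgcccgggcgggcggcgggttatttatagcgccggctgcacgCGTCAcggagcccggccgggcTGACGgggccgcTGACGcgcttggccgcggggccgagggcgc
Each sequence holds 4 matches. A window of 250 bases before to 50 after the start was searched on both strands, and 0.231% of the 32851 windows in the table held 4 or more copies. At least 1 copy was found in 12 of the 30 lower genes with a promoter in the table (40.0%), beside 6228 of all 27025 genes. The full element was found in 2 of the 30 (6.67%), beside 2.03% of all genes. A higher share was not particular to this element. Of the other motifs searched, only AP-1 was rarer in the lower genes (6.67% beside 8.97%). The metal response core TGCNCNC, for example, was in 83.3% beside 53.6%, and the NF-kB motif in 13.3% beside 5.14%. A match is a description of the letters and not of binding.

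Klf2, a zinc-finger factor that restrains inflammatory genes in myeloid cells, had the lowest gene mean in the list of immediate early genes. Its ratio was 1.02 at 1 h, -1.44 at 4 h and -1.18 at 6 h, a difference of -2.46 with Cy3 alone at 0.11. Egr2, a zinc-finger early growth response factor, went from 0.81 to -0.84 (difference -1.65) and stood at -1.10 at 6 h. Fosb, a subunit of the AP-1 factor, went from 1.08 to -0.23 (difference -1.30), which put it near the pool at 4 h by the 0.5 limit. Fosl2 (-1.28), a further AP-1 subunit, the synaptic early gene Arc (-1.22) and the early response gene Ier2 (-1.18) were also counted; these 3 are named after their values were seen. Ier2 had a ratio of 1.12 at 1 h and -0.07 at 4 h, so it too was above the pool early and near it later.

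Within the list of 32 immediate early genes, 26 were measured. At 4 h 8 were lower by the 2-fold rule, 1 was higher, and 23 lay below 0. Their median difference was -0.57, beside -0.05 over all genes, so most measured genes of any kind also lay below 0. How large that majority was is not given, so list counts on either side of 0 have no share over all genes beside them. A 1.5-fold rule, which 177 genes passed downwards (1.68%) and 47 upwards (0.446%), counted 13 lower and 1 higher. The list was not uniform. Fos, the founding AP-1 gene, differed by only -0.20, with ratios of 0.09 at 1 h, -0.11 at 4 h and -1.14 at 6 h, so that its low level was at 6 h. Myc, a growth regulator, lay at 0.29. Egr1 was well above background in Cy5 at 1 h only and in Cy3 at neither time, so it was not measured. Ier3 was the member on the opposite side and is described with the higher genes.

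**Figure D1:**
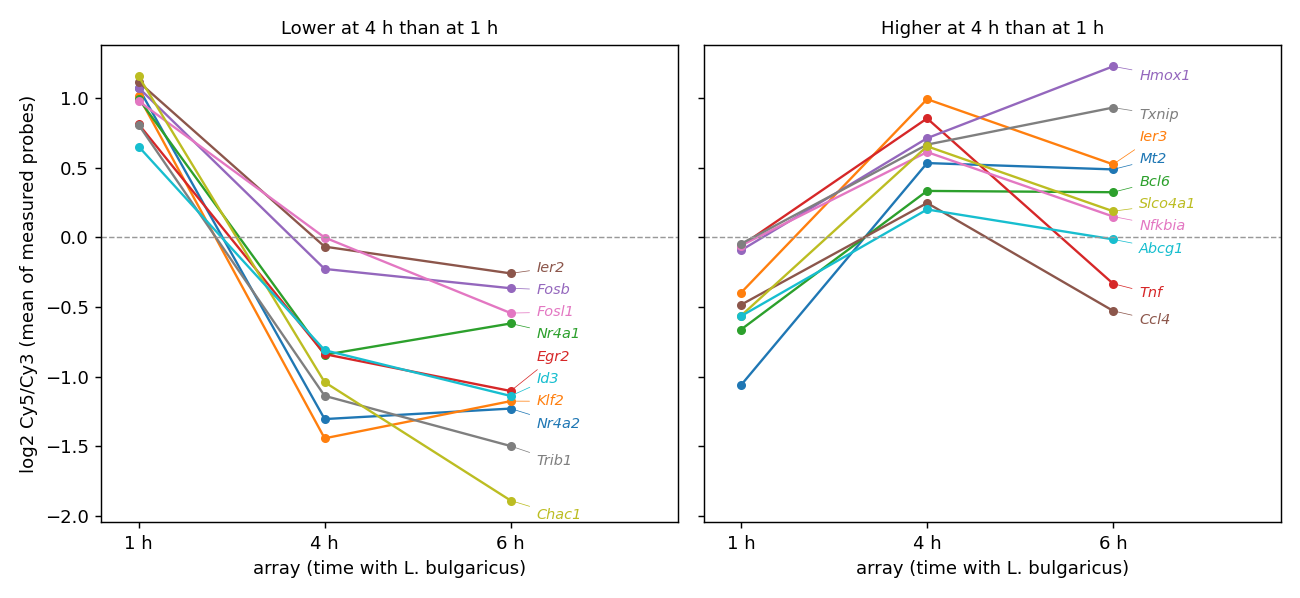
Mean log2 Cy5/Cy3 of the measured probes of each gene (vertical axis) on the 1 h, 4 h and 6 h arrays (horizontal axis, 1 array each, no error bars). At 0 the cells and the reference pool gave equal normalized signal, and dye bias of single probes was not removed. The 10 genes on the left stood above the pool at 1 h and near or below it at 4 h. The 10 on the right were higher at 4 h than at 1 h, with Tnf and Ccl4 lower again at 6 h. Without loess, the differences of Tnf, Hmox1, Ccl4, Nfkbia, Txnip and Abcg1 were below 0, as was the median of the measured probes (-0.82).

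Regulators outside the early gene list were also lower at 4 h. Trib1, a pseudokinase that steers C/EBP factors to degradation, was counted with both probes: the first had ratios of 0.86, -1.43 and -1.96 at 1, 4 and 6 h, and the second 0.76, -0.85 and -1.04. Differences were -2.29 and -1.60. Chac1, an enzyme that degrades glutathione and a target of the ATF4 stress pathway, went from 1.16 to -1.04 and -1.89 (4 h minus 1 h -2.20). The rest of the ATF4 list did not share this size: of 24 measured genes 1 was lower by 2-fold and 4 by 1.5-fold, with a median of -0.04. Among those, Sesn2, a leucine sensor of the mTORC1 pathway, had -0.96, the pseudokinase gene Trib3 -0.89, and the amino acid transporter subunit Slc3a2 -0.64. Atf4 itself had -0.61 and -0.56 with its 2 probes.

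Id genes encode inhibitors that pair with basic helix-loop-helix factors and keep them off DNA. Id3 went from 0.65 at 1 h to -0.81 at 4 h and -1.14 at 6 h (difference -1.46), and Id2 from 0.19 to -1.30 and -1.42 (difference -1.48). Id1 had -1.09, with Cy5 alone at -1.66 and Cy3 alone at -0.57. These were the 3 of 15 measured genes of the Id and BMP feedback list past the rule; the list's median was -0.19. Id2 was near the pool at 1 h and below it at 4 h, whereas Id3 had been above the pool at 1 h. The pool includes the treated groups, so these positions do not show when either decrease began.

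Among 52 lower probes, 17 went from above the pool (a ratio of 0.5 or more) to below it (-0.5 or less), 11 from above to near it, 23 from near to below, and 1 was below at both times. The first classes were above the pool at 1 h and no longer so at 4 h; they hold Bud13, Hpcal1 and Kdm4b, whose Cy5 alone was not lower at 4 h (1.77, 0.10 and 0.14). These positions may hold dye bias of the probes, since no dyes were swapped. Tgfb1, outside the 52, had ratios of 0.97, 0.98 and 0.99 at 1, 4 and 6 h. Whether dye bias played a part was not tested. The median ratio of all 52 probes was 0.58 at 1 h, -0.84 at 4 h and -0.75 at 6 h. Of the 52, 48 carry a gene symbol, for 43 genes, and 4, with differences of -3.39, -2.53, -2.10 and -1.18, are unnamed here. Within 0.1 of the rule, 9 lower probes lay just inside and 16 just outside.

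The fractalkine receptor Cx3cr1, a surface receptor of monocytes and macrophages, was counted with all 3 probes (-1.36, -1.23 and -1.13). The first had 0.47 at 1 h, -0.89 at 4 h and -1.23 at 6 h. The oxygen sensor Egln3, a prolyl hydroxylase, was counted with both probes (-1.36 and -1.17), although Cy3 alone moved by 0.62 for the first. Gadd45g, a stress-response gene, had 0.20, -1.05 and 0.02 at 1, 4 and 6 h, so its low level was at 4 h alone. Mir17hg, the host transcript of the miR-17 cluster, went from 0.34 to -0.67 and -1.93 (difference -1.01). Itprip, which modulates an inositol trisphosphate receptor, had -1.39. The other named genes past the rule, listed after their values were seen, were Epha2 (-1.27), Sertad1 (-1.22), Fam114a1 (-1.18), Pdcd1 (-1.16), Asph (-1.16), Cyth1 (-1.13), Rcan1 (-1.08), Klf7 (-1.06), Retnlb (-1.05), Phf11d (-1.05) and Ly6a (-1.04). For 2 of these the reference moved more than the cells' channel: Fam114a1 had Cy5 alone at -0.30 and Cy3 alone at 0.88, and Phf11d had -0.17 and 0.88. Epha2 is an ephrin receptor, Pdcd1 encodes the receptor PD-1, and Rcan1 encodes an inhibitor of calcineurin.

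By the labels the reference held the same RNA on both arrays, and each channel was also looked at separately. The channel values were split from the normalized ratio and mean intensity of each spot. Cy5 alone minus Cy3 alone therefore equals the ratio difference, and the channels are not independent readings of it. In Cy5 alone, 83 measured probes were lower (0.522%) and 31 higher (0.195%); in Cy3 alone, 23 were lower (0.145%) and 28 higher (0.176%). Of the 52 lower probes, 39 were past 1 in Cy5 alone and 40 had a Cy3 difference under 0.5 in size. In 4 of them Cy5 alone lay on the other side of 0 and Cy3 alone had moved by 1 or more: Bud13, Nek1, Hpcal1 and Kdm4b. Bud13, a splicing factor gene, had a ratio difference of -2.85 with Cy5 alone at 1.77 and Cy3 alone at 4.62; its spot had an outlying local background, and the scanner's processed signals were 958 at 1 h and 807 at 4 h in Cy5 beside 911 and 770 in Cy3. Nek1, a kinase gene, had -1.43 with Cy5 alone at 0.02 and Cy3 alone at 1.45, and its other probe had -0.02. Hpcal1 (-1.05) and Kdm4b (-1.02) had Cy5 differences of 0.10 and 0.14. The 4 are counted by the rule but do not show a lower level in the cells' channel. All 11 higher probes had a Cy3 difference under 0.5, and 10 of them reached 1 in Cy5 alone.

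**Figure D2:**
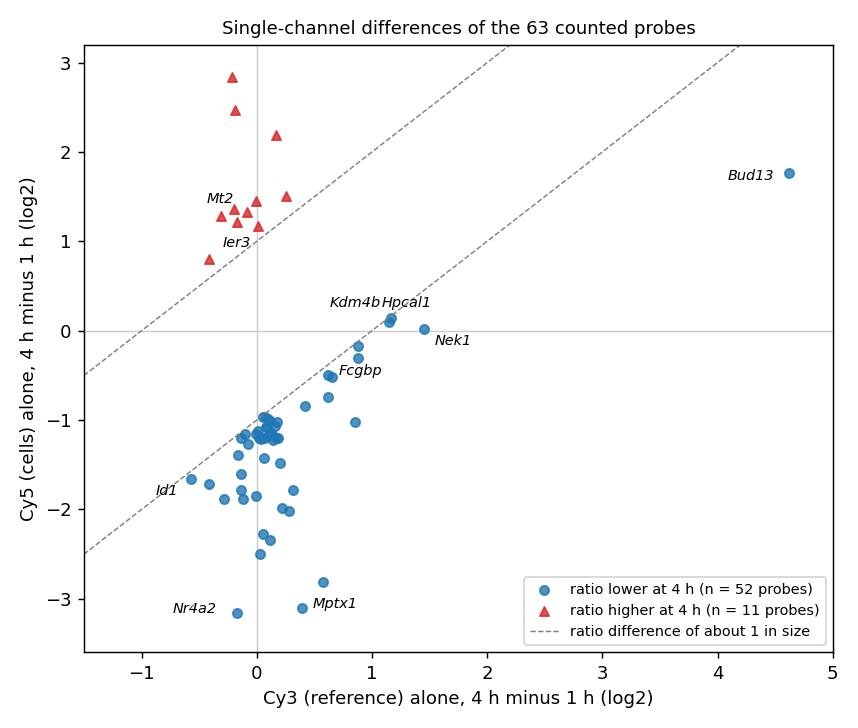
Each counted probe by its 4 h minus 1 h difference in the Cy3 reference alone (horizontal, log2) and in Cy5 alone (vertical, log2); circles are the 52 lower and triangles the 11 higher probes, and dashed lines mark a ratio difference of 1. Most points lie near 0 on the horizontal axis; Bud13, Nek1, Hpcal1 and Kdm4b lie at or above 0 in Cy5 and past 1 in Cy3.

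The higher group was small. Mt2, a metallothionein that binds zinc and other metal ions, had a ratio of -1.06 at 1 h, 0.53 at 4 h and 0.49 at 6 h, a difference of 1.60, with Cy5 alone at 1.28 and Cy3 alone at -0.31. It was below the pool at 1 h and above it at 4 h. Its neighbour in the family, Mt1, had -0.47, 0.31 and 0.38 and a difference of 0.78, short of the 2-fold rule. The remaining 8 measured genes of the metallothionein and zinc list lay below 0, among them the zinc importer Slc39a10 at -0.92. Ier3, an early response gene that restrains cell death, had -0.40 at 1 h, 0.99 at 4 h and 0.53 at 6 h (difference 1.39; Cy5 alone 1.22, Cy3 alone -0.17). It was near the pool at 1 h and above it at 4 h, the one counted probe with that order of positions. Slco4a1, an organic anion transporter gene, had 1.22, of which Cy5 alone gave 0.80 and Cy3 alone -0.42.

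Upstream sequences of the higher genes are shown with the motifs of factors known to act on them, as background, and come from RefSeq on GRCm38.p6, 5' to 3' on the plus strand and ending before the start. For Ier3, chr17:35821596-35821655, capitals mark a match to the NF-kB motif; for Mt2, chr8:94172370-94172599, capitals mark the core of the metal response element, the 7 letters TGCNCNC or their reverse complement.
Ier3: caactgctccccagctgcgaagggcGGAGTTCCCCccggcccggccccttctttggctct
Mt2: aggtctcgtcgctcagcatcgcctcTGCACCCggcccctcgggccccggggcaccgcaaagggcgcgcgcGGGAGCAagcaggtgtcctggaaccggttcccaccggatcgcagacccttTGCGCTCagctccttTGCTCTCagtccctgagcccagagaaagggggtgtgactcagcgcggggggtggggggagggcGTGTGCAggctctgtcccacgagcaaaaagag
The NF-kB motif was found in 4.51% of the 32851 windows. The metal core, a loose motif, was found in 51.0% of them; 5 matches are shown for Mt2, its window held 6, and 0.225% of windows held as many.

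The other 7 higher probes are unnamed here, since their accessions did not match the gene table. Their ratios ran from -4.61 to -0.73 at 1 h, from -1.95 to 0.44 at 4 h and from 0.33 to 1.33 at 6 h. Each was higher at 6 h than at 4 h. The one of largest difference had -4.07, -1.02 and 1.23 (difference 3.05), and Cy5 alone moved by 2.83 against -0.22 in Cy3. The median ratio of all 11 higher probes was -1.75 at 1 h, -0.50 at 4 h and 0.56 at 6 h: 5 were below the pool at both 1 and 4 h, 3 went from below to near it, 2 from below to above, and 1 from near to above. Within 0.1 of the rule, 0 higher probes lay just inside and 5 just outside.

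Further genes with the highest differences did not reach the 2-fold rule. Bcl6, a transcriptional repressor, had -0.66 at 1 h, 0.33 at 4 h and 0.32 at 6 h, and its difference of 0.996 fell just short of the rule. Tnf, the main early cytokine of macrophages, had -0.06, 0.86 and -0.33 (difference 0.92), with its high level at 4 h alone. Hmox1, which degrades haem, had -0.09, 0.71 and 1.23 (difference 0.81), the highest level being at 6 h. Without loess, where the median of all measured probes was -0.82, Bcl6 lay at 0.05, Hmox1 at -0.13 and Tnf at -0.25. Txnip, an inhibitor of thioredoxin, had 0.64 and 0.79 with 2 probes, and the Notch ligand Jag1 had 0.80. Mogat2 had -1.52, -0.71 and -0.51 at 1, 4 and 6 h (difference 0.82), with Cy5 alone at 1.25 and Cy3 alone at 0.44. The values of Rps15 (1.00), Myo1f (1.00), Trps1 (0.84) and Wars (0.80) came with lower Cy3 signal (-1.18, -0.59, -0.65 and -1.16); the other probes of Myo1f and Trps1 lay between -0.02 and 0.17, and the other Wars probe at 0.46.

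Genes of inflammatory mediators lay on both sides of 0. Of 10 measured cytokine and growth factor genes, none passed 2-fold and 3 passed 1.5-fold: Tnf upwards, and downwards Osm, a cytokine of the IL-6 family (-0.79), and Vegfa, an angiogenic factor (-0.76 and -0.67). With the scanner's processed signals Osm had -2.08 and Csf3 1.05, both past 2-fold. Il1b and Il6 were not well above background. Of 11 chemokine genes, 1 passed 1.5-fold upwards, Ccl4 (0.73), with ratios of -0.48, 0.25 and -0.53 at 1, 4 and 6 h; without loess its difference was -0.42. Cxcl10 (0.47) and Cxcl2 (0.39), which attract T cells and neutrophils in turn, were at their highest at 6 h, and the list's median was 0.06 (-0.59 without loess). In the NF-kB list of 21 genes, the inhibitor Nfkbia had -0.06, 0.61 and 0.15 (difference 0.67, or -0.54 without loess), Cd83, an activation marker, -0.71, and Bcl3, a nuclear cofactor of NF-kB, -0.60; the median was 0.00. Ptgs2, the inducible cyclooxygenase, differed by -0.20.

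Genes stimulated by interferon, most of which encode antiviral proteins, lay lower at 4 h by small amounts. Of 34 measured, 33 lay below 0. The median over all genes was below 0 too, and the share of all genes below 0 is not given. Of the 34, 1 passed 2-fold and 10 passed 1.5-fold, all downwards. The median was -0.40, beside -0.05 over all genes. The gene past 2-fold was Rtp4, a chaperone of receptor transport, with 0.29 at 1 h, -1.08 at 4 h and -0.71 at 6 h (difference -1.37). Xaf1, which promotes apoptosis, followed at -0.95, Irf9, a subunit of the interferon-activated factor, at -0.75, and Ddx58, the RNA sensor RIG-I, at -0.68. The median moved to -1.19 without loess, where the median of all measured genes was -0.83.

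In the list of MAP kinase phosphatases and other feedback inhibitors, which switch early kinase signals off, 10 of 12 measured genes lay below 0, 4 of them past 1.5-fold and none past 2-fold, with a median of -0.26. The phosphatase gene Dusp2 had 0.88 at 1 h, -0.07 at 4 h and -0.48 at 6 h (difference -0.95). Dusp1 had 0.48, -0.31 and 0.28 (difference -0.79, Cy3 alone 0.39), Dusp5 had -0.62, and Errfi1, an inhibitor of the EGF receptor, had -0.92. Of 34 genes of cholesterol and fatty acid synthesis 32 lay below 0, with 2 past 1.5-fold and a median of -0.26; the sterol demethylase gene Cyp51 had -0.80 (Cy3 alone 0.45). Of 22 genes of the unfolded protein response 18 lay below 0, with a median of -0.29, led by Herpud1, a gene of ER-associated degradation, at -0.99. By the normalized ratio, none of these 3 lists had a gene past 2-fold in either direction. This depends on how signals are treated. With the scanner's processed signals Dusp5 had -1.92, Errfi1 -1.29, Elovl6 -1.16 and Cyp51 -1.08. The counts below 0 in the 3 lists stand beside a median of -0.05 over all genes, and the share of all genes below 0 is not given.

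The antioxidant genes under the factor NRF2 lay on the other side. Of 23 measured, 20 lay above 0, with a median of 0.19 beside -0.05 over all genes. Of the 23, 1, Hmox1, passed 1.5-fold and none passed 2-fold. Behind it came Slc48a1, a haem transporter (0.56), Gclc, the catalytic subunit of glutathione synthesis (0.53), the autophagy receptor Sqstm1 (0.52) and Txnrd1, a thioredoxin reductase (0.46). Without loess all 5 of these genes lay below 0 and the list's median was -0.79, 0.04 above that of all genes. Histone genes (10 measured, 8 above 0) had a median of 0.18, which was -0.48 without loess. Of the 11 measured macrophage markers none passed either rule, and their median was -0.11. The glycolytic gene Gapdh had -0.09 and -0.07 with its 2 measured probes.

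**Figure D3:**
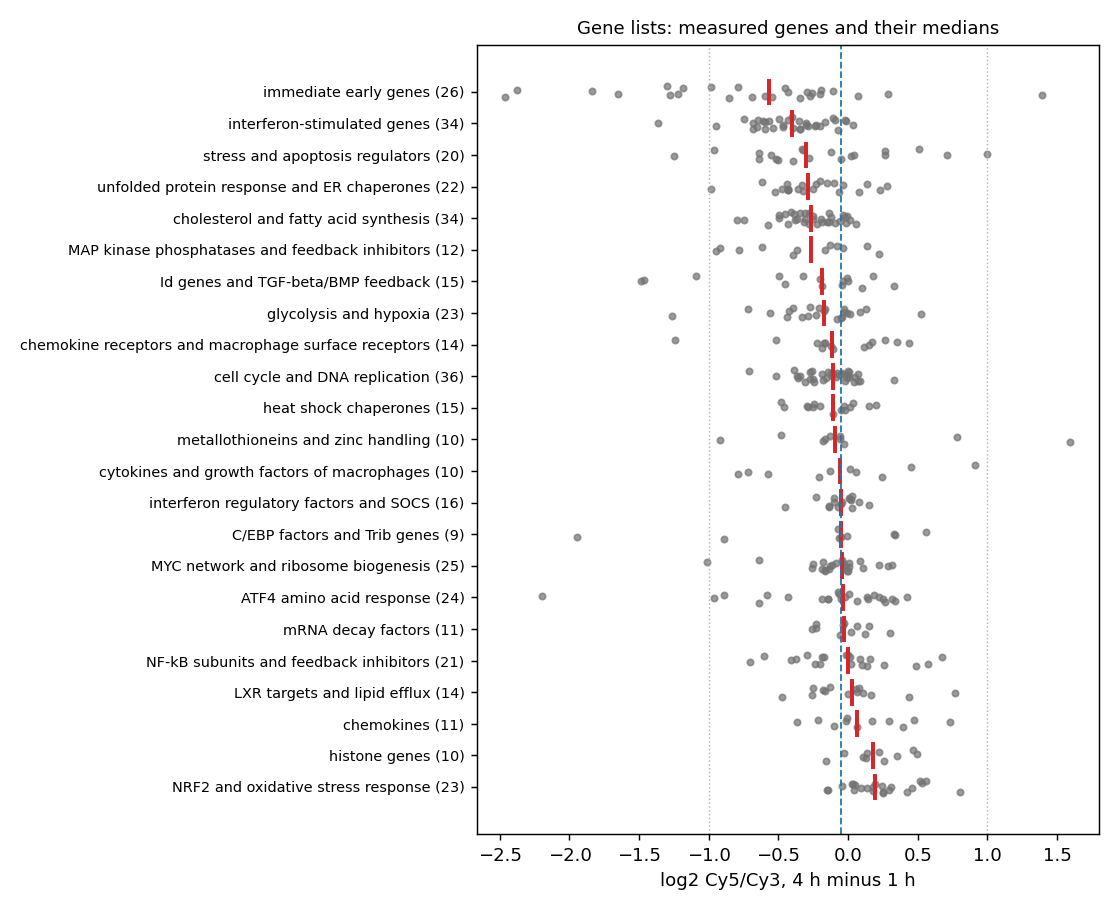
Gene lists (vertical axis, measured genes in brackets) against the 4 h minus 1 h difference in log2 Cy5/Cy3 (horizontal axis); points are genes (means of measured probes), red bars list medians, the dashed line the median of all genes (-0.05) and dotted lines the 2-fold rule. Of the 23 lists drawn, which leave out the cell type markers, immediate early genes have the lowest median (-0.57) and NRF2 genes the highest (0.19); without loess NRF2 genes (-0.79) lie below histone (-0.48) and chemokine genes (-0.59).

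Transcripts typical of other tissues were measured in both channels and some of them were among the largest differences. Mptx1, a pentraxin of Paneth cells, was the lowest named gene of all, with 0.11 at 1 h, -3.39 at 4 h and -0.89 at 6 h (difference -3.50; Cy5 alone -3.10, Cy3 alone 0.39). Sycn, which encodes a zymogen granule protein of the pancreas, had 0.04, -2.29 and 0.78 (difference -2.33), and Aqp8, a water channel of colon and pancreas, -0.31, -1.99 and 0.21 (difference -1.68). Both were low on the 4 h array alone. Gsdmc4, a gasdermin gene, had -1.88, with Cy3 alone at 0.85. Further lower genes of intestinal epithelium were Clca1 (-1.28) and Fcgbp (-1.11, with Cy5 alone at -0.49 and Cy3 alone at 0.62) of goblet cells, Lct (-1.27), the lactase gene, the carbonic anhydrase gene Car1 (-1.27), named after its values were seen, and Reg3b (-1.20), an antimicrobial lectin. On the higher side, the ileal bile acid-binding protein gene Fabp6 had -1.52 at 1 h, 0.04 at 4 h and -0.71 at 6 h (difference 1.56).

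**Figure D4:**
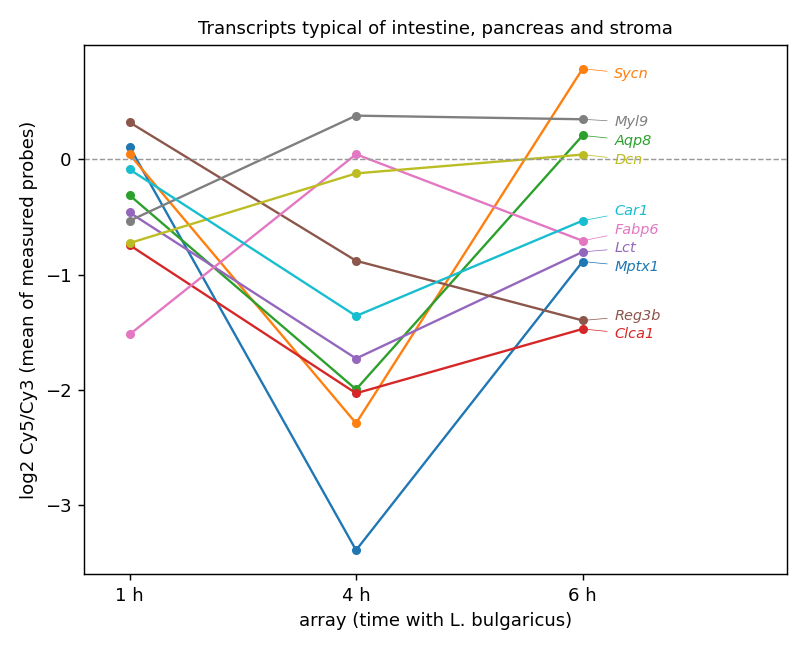
Mean log2 Cy5/Cy3 (vertical axis) of 10 transcripts typical of intestine, pancreas and stroma on the 1 h, 4 h and 6 h arrays (horizontal axis, 1 array each, no error bars). Mptx1, Sycn and Aqp8 were lowest at 4 h (-3.39, -2.29 and -1.99), and Fabp6, Myl9 and Dcn were higher at 4 h than at 1 h; Sycn and Aqp8 were above 0 at 6 h.

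For the enterocyte and goblet cell list, 3 of 17 measured genes were lower by 2-fold and none higher. Of the 17, 12 lay below 0 and 5 above. The summed processed Cy5 signal of its 18 genes was 15570 at 1 h and 13439 at 4 h, with 18 and 17 genes above background, while Cy3 gave 32596 and 31448. For the Paneth cell list, 2 of 16 were lower by 2-fold, with Cy5 sums of 27276 and 23939. Of the 16, 11 lay below 0 and 5 above, and alpha-defensin Defa40 lay at 0.69. In the exocrine gland list 1 of 5 measured genes was lower, 6 of 18 were above background on each array, and the Cy5 sum went from 1769 to 807. Smooth muscle genes had a median of 0.34 (-0.39 without loess), with 1 of 8 measured genes past 1.5-fold upwards, the myosin light chain gene Myl9 (0.91), and 1 downwards, Smtn, an actin-binding protein gene (-0.65 and -0.52 with 2 probes), and Cy5 sums of 12372 and 14250. The 5 measured stromal genes had a median of 0.45. They ran from Col3a1 (-0.02) and Col6a1 (0.04) to the collagen-binding proteoglycan gene Dcn (0.60). The Cy5 sums of the stromal list were 699 and 1269, and 7 of its 12 genes were above background. The labels name the same macrophage-like line for every group and give no source for transcripts typical of other tissues. These lists are therefore given as signal values and not as numbers of such cells. Where these transcripts came from was not tested, nor was their part in the differences of other genes.

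Some probes were well above background in Cy5 on only 1 of these arrays, so that only a bound on the Cy5 level can be given, open to spot and array effects. In Cy5 alone, Kctd3 was at least 10.8-fold lower and Tmlhe at least 4.02-fold lower at 4 h, and Prdx4, a peroxiredoxin gene, was at least 2.53-fold higher. The Cy3 reference of the same spots moved by -3.44, -2.11 and 1.53, and the ratio differences were 0.01, 0.10 and -0.19. The signals of these spots therefore moved in both channels at once, and the bounds do not show a change of these genes relative to the reference.

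How many probes pass the rule depends on how the signals are treated. The 2-fold rule gave 52 lower and 11 higher probes as reported (82.5% lower) and 166 and 143 with the scanner's processed signals (53.7% lower). It gave 83 and 42 with plain background subtraction (66.4%), and 4941 and 4 without loess (99.9%). Without loess each array was centred on the median of all its kept spots, dim ones included, and the measured probes had a median of -0.82. Nr4a1, Nr4a2, Klf2, Trib1 and Chac1 on the lower side and Mt2 and Ier3 on the higher had the same sign under each of these settings, though without loess the 4 named higher genes fell short of the rule, with Fabp6 at 0.56, Mt2 at 0.45, Ier3 at 0.44 and Slco4a1 at 0.12.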

How the data were processed

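RNA of the cells was hybridised in Cy5 against a Cy3 common reference on two-colour Agilent mouse arrays with no dye swap, per the labels. The submitters' processing notes name Agilent Feature Extraction 10.5.1.1 as the image software. The deposited scanner files hold intensity values, the median brightness of each spot and its local background, uncorrected. They also hold processed intensities, background-subtracted and dye-normalized by the scanner software, per the file headers. The deposited series table holds the log10 ratio of Cy5 over Cy3 of the same arrays. Its scale is that of the scanner files' log10 ratio, with no gene centring, and 1 of its columns, the untreated array, was not used. What else the authors did to the values is not stated in the labels or headers.

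Median intensities were corrected with normexp (offset 50) and normalized by loess within each array in limma 3.58.1 under R 4.3.3. Control and outlier spots (1.55% to 1.84% per array) were left out; 0 spots were saturated. The offset draws differences of dim probes towards 0. Single channels were read after Aquantile normalization over the 1, 4 and 6 h arrays. A probe's value is the mean of its spots, and a gene's the mean of its measured probes. Accessions without versions matched a RefSeq gene table of GRCm38.p6 for 27655 of 39429 probes; the array was annotated on mm9, so gene positions on it are not given. The steps were also run on a copy of the 1 h array with added spot noise and known changes. Such a copy shares its dye and background effects with the original, so it cannot test how real arrays differ.

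Named genes were the 20 lowest and 15 highest with a symbol, up to 6 members per list by size, the 3 largest bounds per direction and a set of benchmark genes. The comparison, the 23 gene lists, the 8 marker lists and the rule were chosen with earlier results of these data known. For each count 15 alternatives were planned, and 1 more, leaving out spots with an outlying local background, was chosen after seeing the data. Figures were drawn with matplotlib 3.10.9 from tables made in pandas 2.3.3 under Python 3.11.15.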

Additional observations from a re-analysis of the deposited data

How the results depend on the processing

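With 1 array per group, the rule of size has no measured replicate error behind it; 2 arrays set the precision. Of 16 settings, 9 left the count of lower probes (52) within 1.5 times and 7 left that of higher probes (11) so. Against these, plain background subtraction gave 83 lower and 42 higher, no background correction 21 higher, no loess 4941 lower and 4 higher, and Cy5 alone 83 lower and 31 higher. The scanner's processed signals and the deposited ratios each gave 166 lower and 143 higher. Averaging per gene gave 4 higher, a 1.5-fold rule 244 lower and 85 higher, and a 3-fold rule 16 lower and 4 higher. Leaving out spots with an outlying local background gave 46 lower and 11 higher. In the no-loess setting, centred on all kept spots, the median of the measured probes was itself -0.82. The 30 named genes past the rule had 384 values under alternatives, of which 382 kept their sign. The 2 exceptions were Bud13, at 1.77 in Cy5 alone, and Nek1, at 0.018 in Cy5 alone; Cy3 alone had moved by 4.62 and 1.45 there. The cause of the other shifts was not tested. Several of the alternatives could not change a sign. Aquantile between arrays, no filter on dim probes, a filter over 3 arrays and a limit on the reference keep the same ratios. The deposited ratios gave the same counts as the processed signals, where Bud13 kept its sign at only -0.004. No paired analysis was possible because each group has 1 array.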
